A study of Homo sapiens with 4 samples.

Results

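SOX2 and 9 other transcription factors that specify or mature squamous epithelium (TP63, SOX15, KLF4, KLF5, GRHL1, GRHL3, OVOL1, ZNF750 and PRDM1) were followed in an oral squamous carcinoma line with and without knockdown of KPNA4. The 10 genes are 10 of the 27708 genes with a probe on the array, and all 13 of their probes were taken, found through the transcript named for each probe. The genes were chosen by their processed signals in these same 2 groups and the difference between them, so that their levels and differences are a description here and carry no test. KPNA4 is an importin alpha (karyopherin alpha), an adaptor that carries proteins with a nuclear localization signal into the nucleus, and the comparison asks which transcripts change when it is depleted.

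The cells were Ca9-22, an established human line that derives from a gingival squamous carcinoma, grown in DMEM with fetal bovine serum. There were 2 control cultures and 2 KPNA4 knockdown cultures, described by the submitters as biological replicates, and each was hybridized in a single color to a whole human genome array, with all 4 arrays on the same slide. The sample labels give the genotype, name siRNA as the reagent and place the harvest 3 days after transfection, whereas the methods of the study describe short hairpin RNAs, and the labels do not tell the silencing sequence of either knockdown culture. With 1 line and 2 cultures per group, the effect of the knockdown and of any other difference between the cultures cannot be told apart.

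In stratified squamous epithelium, p63 (encoded by TP63) keeps the basal progenitor state, and SOX2, amplified in many squamous carcinomas, works beside p63 in the esophagus and the oral lining. As cells leave the basal layer, KLF4, the grainyhead factors GRHL1 and GRHL3, OVOL1, ZNF750 and PRDM1 take part in switching on genes of the cornified envelope and in closing down the progenitor program. KLF5 is active in proliferating epithelial cells and in differentiation.

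Levels are given as the log2 of the background-corrected signal relative to the 75th percentile of the array, a scale on which 0 is the signal of a probe brighter than most, and a difference is the mean of the knockdown arrays minus that of the control arrays. Levels of different probes are not comparable with each other. The 75th percentile itself was 1466 and 1381 in the controls, against 1938 and 2096 in the knockdown cultures. A probe is called detected where the scanner software flags it as well above background. The share of probes detected was 70.2% to 71.1% on the 4 arrays, and the correlation across genes was 0.998 within each group and 0.979 between the groups. Of the 19542 genes tested with limma, 3974 (20.3%) were higher and 5764 (29.5%) lower in the knockdown at an adjusted p under 0.05, with a median difference of -0.10. Without scaling between arrays the median was 0.40, with 11256 genes higher and 1047 lower, so that the direction of a difference under about 0.5 depends on the scaling. Quantile normalization gave 4357 higher and 4896 lower. The normexp setting, a background correction of the median spot signal followed by quantile normalization, gave 4613 and 4824.

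KPNA4 checked the labels. Its probe read 4.02 and 4.03 in the controls against 2.36 and 2.06 in the knockdown, a difference of -1.82 (SE 0.12, limma adjusted p = 0.00183), which is 3.53-fold lower. Of 19 keratinocyte markers, 18 were detected on both control arrays and all 19 on both knockdown arrays, with DSC3 as the exception. The marker list of fibroblasts had 4 of 10 genes detected in each group and a summed linear level of 0.150 to 0.154 in the controls against 0.339 to 0.357 in the knockdown. The leukocyte list had 7 of 9 in the controls and 5 of 9 in the knockdown, with sums of 4.75 to 4.81 and 6.12 to 6.46. In that list CD14 differed by 0.54, whereas CD3E (-1.48), CD68 (-1.37) and PTPRC (-0.55) were lower. Summed levels of the keratinocyte list were 301 to 302 and 290 to 299, sums in which bright genes such as SFN weigh most, and those of the simple epithelium list were 275 to 288 and 296 to 312. Endothelial markers had sums of 0.165 to 0.171 in the controls and 0.095 to 0.104 in the knockdown, melanocyte markers 0.769 to 0.771 and 0.660 to 0.674, and neural markers 10.4 to 10.9 and 11.1 to 11.98. Of 24 genes whose presence differs between the genomes of cell lines, 4 were detected on both knockdown arrays and on neither control array, and 0 the other way round. HLA-DRB5 was among them, at least 6.46-fold higher in the knockdown. For HLA-DRB4 the limit was 1.22-fold (limma adjusted p = 0.124) and for CHI3L2 it was 1.24-fold, both near the lowest detected signals. The share of all genes detected on both knockdown arrays and neither control array was not counted. With these genes detected in the knockdown alone, a difference of cell line or clone between the groups and an effect of the knockdown cannot be told apart in any of the differences below. The part of the cell type markers was not tested.

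The 10 factors fell into 2 sets. In 7 of them (SOX2, KLF5, OVOL1, GRHL3, ZNF750, GRHL1 and PRDM1) the knockdown arrays both exceeded the controls, by at least 2-fold on the means, and TP63, KLF4 and SOX15 differed by less than 2-fold. None was lower by 2-fold, and each had its brightest probe detected on all 4 arrays. The median difference of the 10 was 1.39, beside -0.10 over all genes tested. Over all genes tested, 5.42% were at least 2-fold higher and 3.48% at least 2-fold lower, and in 31.7% the knockdown arrays lay above both control arrays and in 48.2% below. These shares stand beside the counts of the 10 factors as background, and the selection of the genes on this contrast leaves nothing to be read from the comparison. As RNA of whole cultures was measured, more cells with a transcript and more transcript per cell cannot be told apart.

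**Figure D1:**
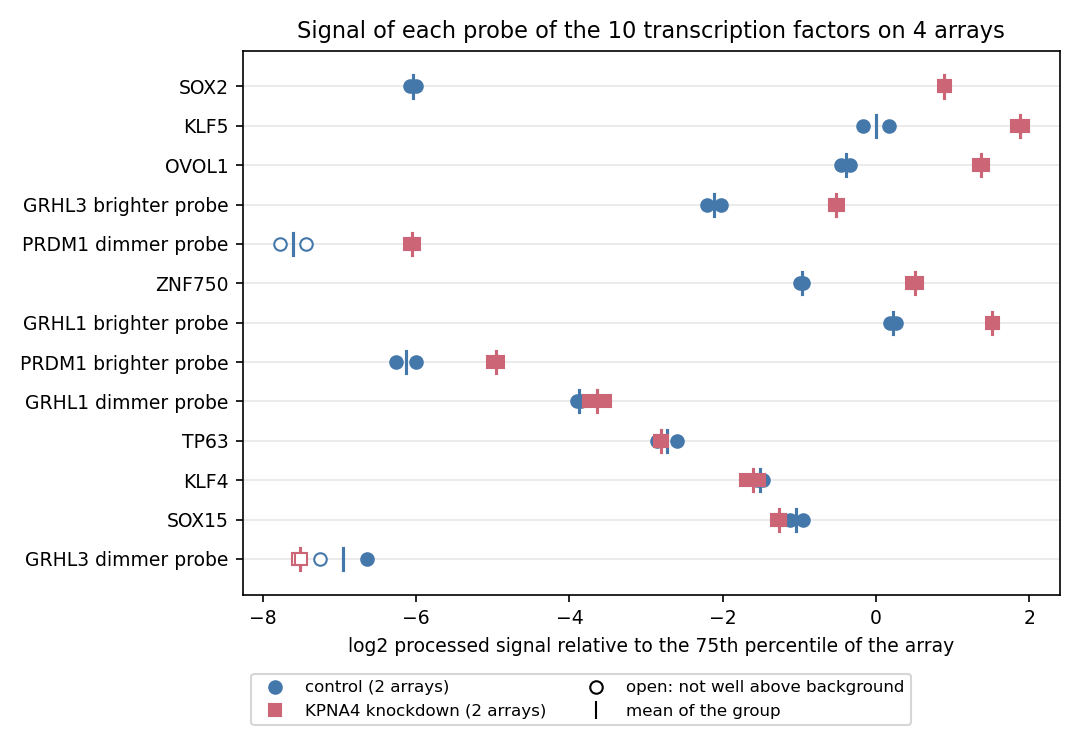
Log2 processed signal relative to the 75th percentile of the array (x axis) for each of the 13 probes of the 10 factors, on 2 control arrays (circles) and 2 KPNA4 knockdown arrays (squares), with the mean of each group as a tick and open symbols where a probe was not detected. SOX2 goes from about -6.04 to 0.89, the brighter probes of 6 other genes move to the right by 1.17 to 1.88, and those of TP63, KLF4 and SOX15 stay within 0.23.

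SOX2 is an HMG box factor that keeps progenitor states in the foregut and in embryonic stem cells. Its probe, present once per array, had a processed signal of 22.9 and 20.5 in the controls and of 3611 and 3879 in the knockdown cultures. On the log2 scale these were -6.00, -6.08, 0.90 and 0.89. The control spots were dim yet flagged as detected, with a median intensity of 65 and 63 before correction over a local background of 30.5 and 29.5, and the knockdown spots were bright at 4060 and 4346. The difference was 6.93 (SE 0.06), which is 122-fold. Among the 18506 genes detected on all 4 arrays it ranked the third from the top, after KLK5 (7.80) and KRT6A (6.94). Since the control signal is near the background, the size of the fold change moves with the processing. The difference was 4.46 with normexp, an offset of 50 and quantile normalization. Under the other scalings, quantile normalization alone among them, it was 6.91 to 7.43.

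The SOX2 promoter window in RefSeq (GRCh38.p14) is shown because it holds a match to the SOX site ACAAAG. Printed are the 250 bases before the annotated start, on the plus strand, 5′ to 3′, with the match in capitals, at chr3:181711675-181711924.
SOX2: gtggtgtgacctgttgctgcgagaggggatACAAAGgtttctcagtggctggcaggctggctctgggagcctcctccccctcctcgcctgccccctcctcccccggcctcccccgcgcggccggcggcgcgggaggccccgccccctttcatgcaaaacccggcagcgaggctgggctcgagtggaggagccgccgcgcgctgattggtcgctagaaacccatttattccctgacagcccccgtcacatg
The match begins at offset -220 from the start. The letters ACAAAG occur on either strand in 16.1% of the 35116 promoter windows of 300 bases (250 before and 50 from the start on). The SOX2 window had a GC content of 63.3% and 20 CpG dinucleotides, and 37.8% of all windows were at least as GC rich. A match of this kind describes the letters and does not establish a binding site.

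The 4 genes whose pattern over the 4 arrays was closest to that of SOX2, by the Euclidean distance between values centered on the control mean among those 18506 genes, were KRT6A, SPRR3, VTCN1 and KRT13. KRT6A, a keratin of stressed and proliferating squamous cells, read -5.44 and -5.39 in the controls and 1.51 and 1.53 in the knockdown, a distance of 0.09. The transcripts of KRT6B and KRT6C are nearly identical to it and could share its signal. SPRR3, a small proline-rich envelope protein of the oral and esophageal lining, read -6.49, -6.32, -0.13 and 0.16, a distance of 0.77. VTCN1, which encodes an inhibitory ligand of the B7 family, read -6.63, -6.81, -0.51 and -0.44, a distance of 0.98. KRT13, the suprabasal keratin of the oral lining, went from -2.83 and -2.71 to 3.22 and 3.39, a distance of 1.23. With 2 groups of 2 arrays, likeness of this kind mostly means a difference of similar size.

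**Figure D2:**
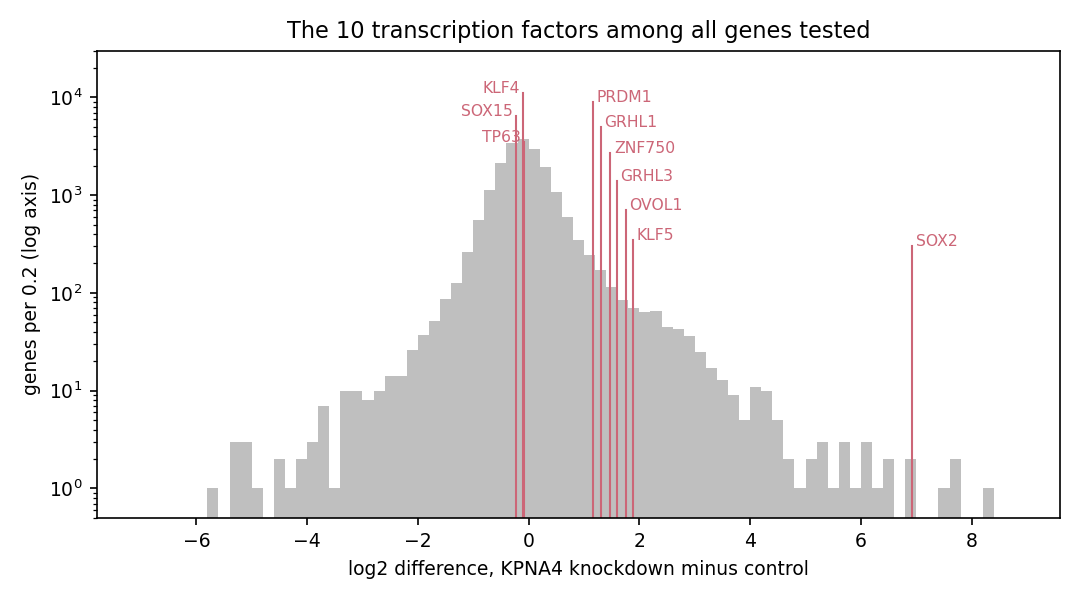
Distribution of the log2 difference, KPNA4 knockdown minus control, over 19542 genes in bins of 0.2 (y axis on a log scale), with the brightest probe of each of the 10 factors as a vertical line whose height has no meaning. SOX2 at 6.93 lies at the far right of the distribution, KLF5, OVOL1, GRHL3, ZNF750, GRHL1 and PRDM1 lie between 1.17 and 1.88, and TP63, KLF4 and SOX15 lie at its center, slightly below 0 here and above 0 without scaling.

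TP63 and SOX15 did not follow SOX2. TP63 read -2.85 and -2.60 in the controls and -2.79 and -2.82 in the knockdown, and the groups overlapped. The difference was -0.08 (SE 0.11), and it was 0.43 without scaling and 0.05 without control 2. With 1 probe, the isoforms of TP63 with and without the transactivation domain cannot be told apart, and which of them it reads is not known here. SOX15, an HMG box factor of squamous and muscle progenitors, read -1.12 and -0.96 against -1.29 and -1.25. Both knockdown arrays lay below both control arrays, the closest pair being 0.13 apart. The difference of -0.23 (SE 0.08) became 0.27 without scaling.

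The 2 Krüppel-like factors, zinc finger proteins that bind GC-rich boxes, went apart. KLF5 read 0.17 and -0.17 without the knockdown and 1.85 and 1.91 with it, a difference of 1.88 (SE 0.13), or 3.68-fold. KLF4, a factor of barrier formation in skin, read -1.47 and -1.55 against -1.69 and -1.53, with overlapping groups and a difference of -0.10 (SE 0.09) that turned to 0.40 without scaling. The control arrays of KLF5 were 0.34 apart, the widest gap between replicates among the brightest probes of the 10 factors, and its knockdown arrays still lay 1.68 above the higher control. RefSeq gives KLF5 a pair of windows, and the upstream one, with a GC content of 40.7%, is shown because it holds the SOX site variant ACAATG on the minus strand, in capitals as CATTGT, at offset -58 from the start. It lies at chr13:73054726-73054975 on the plus strand.
KLF5: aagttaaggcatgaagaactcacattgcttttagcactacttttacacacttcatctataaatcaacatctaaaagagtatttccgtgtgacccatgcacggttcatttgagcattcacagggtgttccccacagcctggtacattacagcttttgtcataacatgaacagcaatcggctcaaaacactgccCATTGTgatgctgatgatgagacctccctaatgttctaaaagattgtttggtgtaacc
ACAATG occurs in 10.8% of all windows. The other KLF5 window had a GC content of 71.3% and none of the motifs searched.

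Both grainyhead factors, which bind enhancers of epithelial junction and barrier genes, were higher by their brighter probes. GRHL3 read -2.21 and -2.03 in the controls and -0.49 and -0.54 in the knockdown, a difference of 1.60 (SE 0.09), or 3.03-fold. GRHL1 read 0.19 and 0.26 against 1.52 and 1.52, a difference of 1.30 (SE 0.06), or 2.46-fold. Their other probes did not show this. The dimmer GRHL1 probe, assigned to the same transcript, read -3.90, -3.85, -3.74 and -3.53, a difference of 0.23, and the mean over both probes gave 0.77. The dimmer GRHL3 probe, assigned to another transcript, was detected on control 1 alone, at -6.64, -7.26, -7.55 and -7.50, and did not pass the filter. With normexp the difference of GRHL3 was 1.09.

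GRHL3 also has a pair of windows, and the downstream one is shown because it holds matches to 3 of the motifs searched: the SOX site variant as CATTGT (offset -220, minus strand), the grainyhead site AACCGG (offset -70) and the Krüppel-like box CCACCC (offset -42). It lies at chr1:24322790-24323039 on the plus strand.
GRHL3: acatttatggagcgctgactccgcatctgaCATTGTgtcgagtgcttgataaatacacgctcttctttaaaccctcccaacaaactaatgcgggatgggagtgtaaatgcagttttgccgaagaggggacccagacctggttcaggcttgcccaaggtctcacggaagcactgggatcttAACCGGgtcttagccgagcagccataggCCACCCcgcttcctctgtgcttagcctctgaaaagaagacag
AACCGG occurs in 7.23% and CCACCC in 34.3% of all windows. The tables do not tell which window belongs to the transcript of which probe. Windows were found for 7 of the 10 factors (10 windows, with a median GC content of 53.7% against 58.7% over all windows), and SOX15, OVOL1 and ZNF750 had none. Besides those shown, ACAAAG and CCACCC each occurred in a PRDM1 window, and ACAATG and CCACCC in the upstream GRHL3 window. The letters CCGTTA of the OVOL site (in 3.07% of all windows), GTGAAAG of the PRDM1 site (3.95%) and GGACATG of the p63 site (2.64%), searched on both strands, were in none of the 10.

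The late regulators OVOL1, ZNF750 and PRDM1 were all higher. OVOL1, a zinc finger repressor that acts as keratinocytes leave the cell cycle, read -0.45 and -0.34 in the controls and 1.34 and 1.39 in the knockdown, a difference of 1.76 (SE 0.07), or 3.39-fold. ZNF750, which represses progenitor genes and activates late differentiation genes, read -0.99 and -0.95 against 0.48 and 0.54, a difference of 1.48 (SE 0.06), or 2.78-fold. PRDM1 (BLIMP1), a repressor found in granular keratinocytes, read -6.00 and -6.26 against -4.99 and -4.93, a difference of 1.17 (SE 0.11), or 2.25-fold. For OVOL1 and ZNF750 the gap between the groups was at least 1.43, wider than the distance between replicates. PRDM1 was dim on all arrays, and its difference was 0.28 with normexp. The dimmer PRDM1 probe read -7.43 and -7.78 in the controls, where it was not detected, and -6.03 and -6.08 in the knockdown. It was at least 2.57-fold higher, a limit for which each dim array was given its lowest signal of a detected probe or the probe's own signal, whichever was higher. It passed the filter through the knockdown arrays only.

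**Figure D3:**
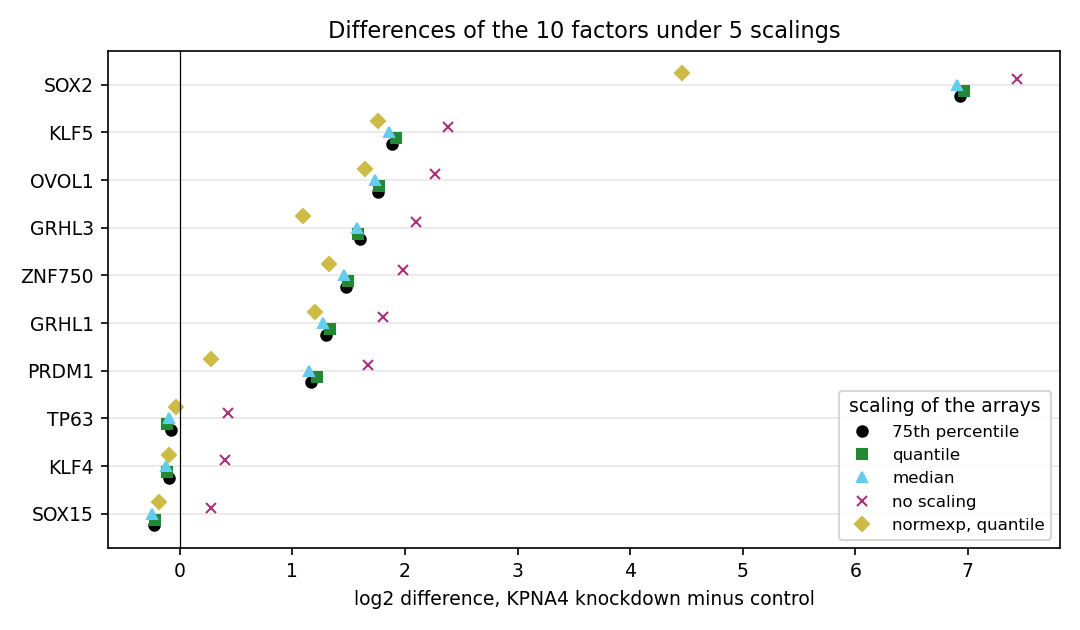
Log2 difference, KPNA4 knockdown minus control, of the brightest probe of each of the 10 factors under 5 scalings of the arrays. SOX2 lies between 4.46 and 7.43, PRDM1 falls to 0.28 with normexp, and TP63, KLF4 and SOX15 change from below to above 0 when the arrays are not scaled.

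The relatives of these factors were compared next, as other genes of the same protein families, in a list written with earlier results of these data known. As the factors were chosen on this contrast, nothing can be read from a factor lying above its relatives. Of 53 relatives, 51 had a probe and 39 were tested: 9 (23.1%) were higher, 10 (25.6%) lower and 20 did not pass the test, near the 20.3% and 29.5% of all genes, with a median of -0.03 beside -0.10 over all genes. Among SOX factors 8 of 17 were tested and 2 were higher. SOX6, a partner of SOX5 in cartilage and muscle, read -7.63 and -7.10 against -5.12 and -5.01 and rose by 2.30 (SE 0.20, limma adjusted p = 0.00314), although it was detected on 1 control array only and its difference was 0.47 with normexp. SOX7, a factor of endothelial development, rose by 0.97 (SE 0.08, adjusted p = 0.00307). SOX3, a close relative of SOX2, was not detected on the control arrays, with a limit of at least 2.01-fold and an adjusted p of 0.0802. SOX9, a progenitor factor of hair follicle and cartilage, differed by 0.01 (adjusted p = 0.930).

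Krüppel-like factors moved in both directions, with 6 (42.9%) higher and 4 (28.6%) lower of 14 tested, beside 20.3% and 29.5% over all genes. KLF8, a factor linked to invasive growth, read -3.68 and -3.59 against -2.42 and -2.42 and rose by 1.22 (SE 0.06, limma adjusted p = 0.00121), or by 0.73 with normexp. KLF11, a TGF-beta-responsive factor, rose by 1.01 (SE 0.06, adjusted p = 0.00153). KLF9, KLF13, KLF2 and KLF10 rose by 0.29 to 0.90. KLF1, KLF16, KLF7 and KLF12 fell by 0.91, 0.83, 0.61 and 0.36 on the log2 scale, and without scaling KLF12 was at 0.15 and KLF7 at -0.11 with an adjusted p of 0.419. The difference of KLF5 was 1.88, and the highest among these relatives was the 1.22 of KLF8.

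Among the remaining families few relatives rose. GRHL2, the grainyhead factor that keeps the epithelial state, differed by 0.20 (limma adjusted p = 0.0542), and 0 of 4 grainyhead relatives passed the test. OVOL2, the paralog of OVOL1, differed by -0.03 (adjusted p = 0.828) and by 0.47 without scaling. Of 10 PRDM relatives tested, PRDM12 rose by 0.56 and 4 were lower, PRDM13, PRDM16 and PRDM10 among them, PRDM16 being not detected in the knockdown, and PRDM10 at 0.21 without scaling. TP73, a relative of TP63, fell by 0.59 (adjusted p = 0.0129) on the log2 scale, and was at -0.09 without scaling, where it did not pass the test. Beyond the 4 largest changes of the list, relatives were named after their values were seen.

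**Figure D4:**
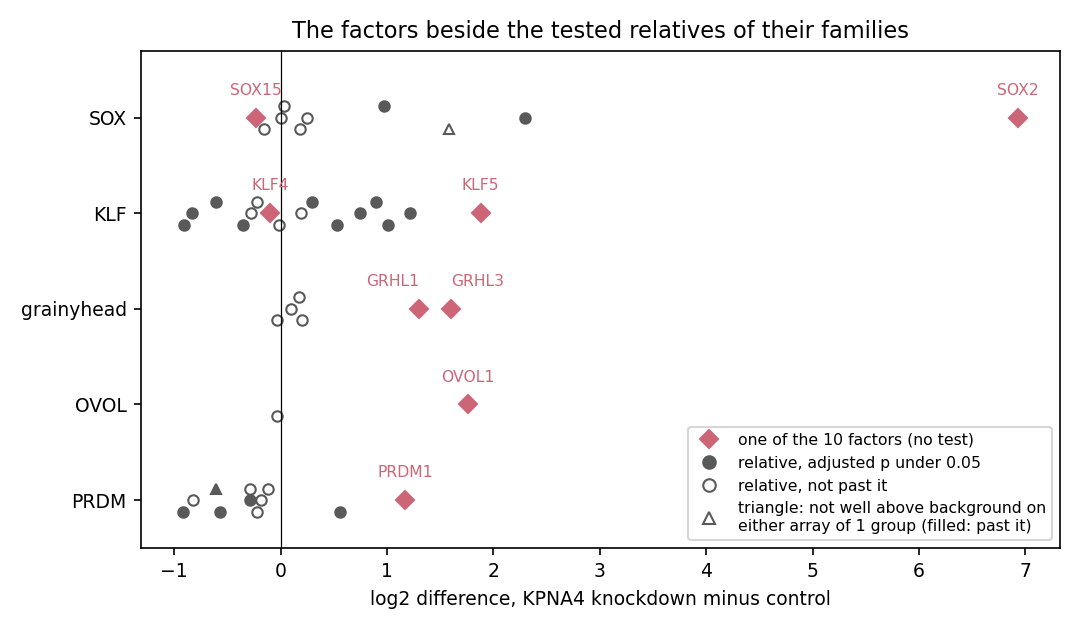
Log2 difference, KPNA4 knockdown minus control, of the factors (diamonds, no test) and of the tested relatives (filled where the limma adjusted p is under 0.05) in 5 protein families. SOX2 at 6.93 lies far from every SOX relative, the highest of which is SOX6 at 2.30, and the 4 grainyhead relatives lie near 0 while GRHL1 and GRHL3 lie at 1.30 and 1.60. The factors were chosen on this contrast, so that their distance from the relatives is a description only. TP63 and ZNF750 are not drawn.

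Other transcription factors of squamous epithelium moved in both directions. Of 50, all had a probe and 41 were tested, with 21 (51.2%) higher, 6 (14.6%) lower and 14 not called, beside 20.3% and 29.5% over all genes. The median was 0.49 beside -0.10 over all genes. This list and the gene lists that follow were written by hand with earlier results of these data known. Their shares and medians are therefore a description, and nothing can be read from their distance to all genes. RUNX3, a Runt factor, was not detected in the controls and passed the filter through the knockdown arrays only, so that its call carries no support. It was at least 4.89-fold higher, while its log2 difference with normexp was 0.51, under that limit. FOXQ1, a forkhead factor, read -6.36 and -5.85 against -3.23 and -3.27 and rose by 2.86 (SE 0.19, limma adjusted p = 0.00182), or by 0.97 with normexp. FOXA1, a pioneer factor of glandular and foregut epithelia, read -3.85 and -3.90 against -1.63 and -1.57 and rose by 2.28 (SE 0.06, adjusted p = 0.000420), or by 1.42 with normexp. CEBPA, which promotes keratinocyte differentiation, read -2.49 and -2.44 against -0.23 and -0.18 and rose by 2.26 (SE 0.06, adjusted p = 0.000408). The groups did not overlap in any of the 4, which the choice of named genes required.

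A list of genes described as direct or indirect targets of p63 was read beside TP63, which differed by -0.08 (0.43 without scaling). All 33 were tested, with 17 (51.5%) higher, 7 (21.2%) lower and 9 not called, beside 20.3% higher and 29.5% lower over all genes. The median was 0.21, beside -0.10 over all genes. FGFR3, a growth factor receptor, read -1.62 and -1.47 against 2.04 and 1.99 and rose by 3.56 (SE 0.08, limma adjusted p = 0.000311). CLCA2, a calcium-activated chloride channel regulator, was at least 6.69-fold higher, BMP7, a bone morphogenetic protein, at least 4.36-fold and the desmosomal cadherin DSC3 at least 2.24-fold. These 3 were not detected on either control array and passed the filter through the knockdown arrays only, so that their calls carry no support. With normexp, whose offset shrinks the differences of dim probes, theirs were 0.66, 0.39 and 0.29 on the log2 scale, under those limits. The lower genes included ITGB4, COL17A1, CDKN1A, ITGA3, SFN and ITGA6, of which ITGB4, COL17A1, ITGA3 and ITGA6 encode parts of the attachment to the basement membrane. Their differences ran from -1.15 for ITGB4 to -0.27 for ITGA6, and those of CDKN1A, ITGA3, SFN and ITGA6 were above 0 without scaling. Without scaling the list had 26 higher and 1 lower, and 3 lower with quantile normalization. The genes of the lower set were named after their values were seen.

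Targets of the differentiation factors included KLK5, the gene with the largest difference among those detected on all 4 arrays. Of 41 genes, 40 had a probe and 35 were tested, with 19 (54.3%) higher, 7 (20%) lower and 9 not called. The shares over all genes were 20.3% higher and 29.5% lower. The median of the list was 0.89, or 0.77 with 5 genes at their limit. KLK5, a protease of shedding, read -5.55 and -5.19 against 2.41 and 2.44 and rose by 7.80 (SE 0.14, limma adjusted p = 0.000298). SPRR3 rose by 6.42 (SE 0.13, adjusted p = 0.000305), or by 3.22 with normexp, and KRT13 by 6.07 (SE 0.09, adjusted p = 0.000267). KLK7, another protease of shedding, was at least 9.96-fold higher. It was not detected on either control array and passed the filter through the knockdown arrays only, so that its call carries no support. With normexp the log2 differences of KLK5 and KLK7 were 5.43 and 0.86, the latter under its limit. The 7 lower genes were ALOXE3, LCE3D, FLG, CNFN, EVPL, SPRR2D and CRNN, named after their values were seen, with differences from -1.37 to -0.42, of which those of EVPL, SPRR2D and CRNN were above 0 without scaling, where 3 genes were called lower. FLG encodes filaggrin, the keratin-binding protein of the cornified layer, and ALOXE3 a lipoxygenase of the skin barrier.

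The list around the epithelial state, which GRHL and OVOL factors maintain, gave 14 (50%) higher and 3 (10.7%) lower of 28 tested, with 11 not called. These shares stand beside 20.3% higher and 29.5% lower over all genes. The median of the list was 0.38. The list holds epithelial genes together with mesenchymal genes and repressors of the epithelial state, such as VIM, SPARC, SNAI1 and ZEB2. Its counts and median therefore do not give a direction for the epithelial state. CDH1, the epithelial cadherin, read 0.94 and 0.75 against 1.99 and 2.03 and rose by 1.16 (SE 0.09, limma adjusted p = 0.00237). VIM, the intermediate filament of mesenchymal cells, also rose, by 2.66 (SE 0.12, adjusted p = 0.000959), as did the matrix protein SPARC, by 1.39 (SE 0.06, adjusted p = 0.000914). The repressor ZEB2 was lower by at least 2.76-fold, being not detected on the knockdown arrays, and its log2 difference with normexp was -0.18, inside that limit. EPCAM fell by 0.51 and SNAI1 by 0.33 on the log2 scale, and without scaling they were at -0.01 (adjusted p = 0.947) and 0.17, where neither passed the test, both named after their values were seen. Among fibroblast markers, COL1A1 rose by 1.62 (adjusted p = 0.00128) and COL1A2 by 1.24 (adjusted p = 0.000967). PDGFRB, detected on 1 control array only, rose by 0.56 (adjusted p = 0.0335). DCN differed by -0.10 (adjusted p = 0.705), and LUM, detected in the controls only, was at least 1.37-fold lower. The part of the fibroblast markers in these differences was not tested.

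SOX2 partner and stem cell genes often had signals too low for the test. Of 34, 33 had a probe and 17 were tested, with 7 (41.2%) higher, 4 (23.5%) lower and 6 not called, beside 20.3% and 29.5% over all genes. The median was 0.28, or 0.18 with 1 gene at its limit. The largest changes were those of NES, an intermediate filament of neural progenitors, at 1.15 (SE 0.07, limma adjusted p = 0.00165), the Notch target HES5 at 1.11 (SE 0.08, adjusted p = 0.00236), and the Hedgehog effectors GLI1 at 1.05 (SE 0.09, adjusted p = 0.00336) and GLI3 at 0.98 (SE 0.08, adjusted p = 0.00279). POU5F1, the partner of SOX2 in pluripotent cells, differed by -0.23 (adjusted p = 0.261), and NANOG did not pass the filter on low signals. Both were named after their values were seen.

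Cofactors and importins changed little in size. Of 38 tested, 13 (34.2%) were higher, 5 (13.2%) lower and 20 not called, beside 20.3% higher and 29.5% lower over all genes. The median was 0.17. The corepressor NCOR1 rose by 1.23 (SE 0.08, limma adjusted p = 0.00168), the methyltransferase KMT2C by 0.76 (SE 0.08, adjusted p = 0.00489), the corepressor RCOR1 by 0.73 (SE 0.07, adjusted p = 0.00355) and the corepressor TLE3 by 0.68 (SE 0.13, adjusted p = 0.0171). The number lower was 0 without scaling. Of the importins KPNA1, KPNA2, KPNA3 and KPNB1 on the list, KPNA2 passed the test, at -0.31 (adjusted p = 0.0216) and above 0 without scaling, while KPNA1 (0.27), KPNA3 (-0.06) and KPNB1 (-0.15) did not. The importins were named after their values were seen.

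**Figure D5:**
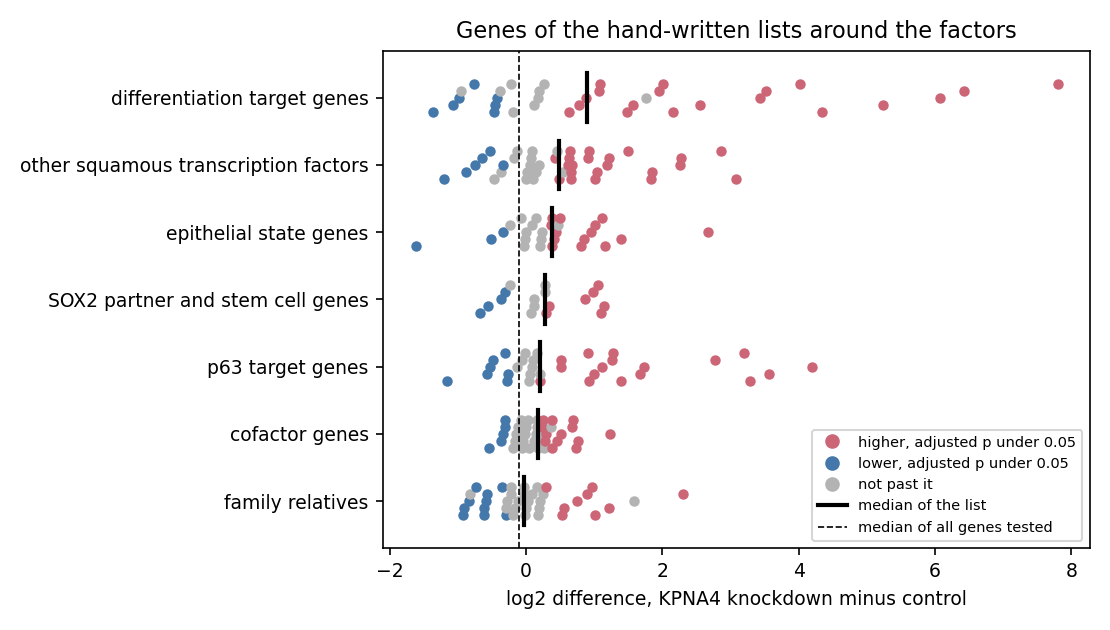
Log2 difference, KPNA4 knockdown minus control, of every tested gene in 7 hand-written lists, colored by the limma call, with the median of each list (bar) beside the median of all genes tested (dashed line, -0.10). The medians run from -0.03 for the family relatives to 0.89 for the differentiation targets, and every list holds genes in both directions.

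The genes beside the factors in the RefSeq order were counted last. Of 20 nearest tested neighbors, 3 were higher, 7 lower and 10 not called, beside 20.3% higher and 29.5% lower over all genes. Beside SOX2, DNAJC19 differed by 0.06 (limma adjusted p = 0.496) and ATP11B by 0.61 (SE 0.18, adjusted p = 0.0508), beside the 6.93 of SOX2 between them. SOX2-OT, the noncoding transcript that overlaps SOX2, read -8.34, -8.10, -6.60 and -9.49 on control 1, control 2, knockdown 1 and knockdown 2, was detected on knockdown 1 alone, and was not tested. The 3 higher neighbors, named after their values were seen, were TPRG1 beside TP63 (2.14-fold), KLF11 beside GRHL1 (2.02-fold) and AP5B1 beside OVOL1 (1.51-fold). TPRG1 read -7.20 and -7.62 in the controls, near the lowest detected signals, and was detected on 1 control array only.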

How the data were processed

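Gene expression was measured in 2 control and 2 KPNA4 knockdown cultures of Ca9-22. The authors deposited the Agilent Feature Extraction 11.0.1.1 output of each array, whose processed signal intensity is background-subtracted but not scaled between arrays. The authors also deposited a table of ratio values for 24209 of the 34127 probes, and these lay within 0.01 of the signal divided by about the array's 75th percentile, on the log2 scale, for a share of 0.994 to 0.995 of the probes, with departures of up to 0.94 for the rest. The table served as an alternative. Its column medians were 0.327 to 0.334.

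Control spots and outlier-flagged spots (333 to 355 of 43118 per array) were left out, and 0 were saturated. Probes were named by accession through RefSeq (GRCh38.p14), which matched 25771. The filter on low signals required both arrays of a group to be well above background, in 1 group or more, and the brightest such probe represented its gene. A gene not detected in 1 group passed through the other group only, so that its call carries no support. A gene in several lists counts in each. Of the 13 probes of the 10 factors 12 passed, 11 of them on all 4 arrays. Groups were compared with limma 3.58.1 (R 4.3.3) and Benjamini-Hochberg adjustment at 0.05, and the procedure was tested on simulated data. In it 50 genes at each of 4 sizes were changed among 19542. Of 50 genes changed by 0.5 on the log2 scale, 5 were recovered. The number was 28 of 50 at 1, 38 at 2 and 47 at 4, with 4 false calls. Far fewer genes changed there than were called in the data, which makes the adjustment stricter, so that these numbers do not give the recovery in the data. A gene that did not pass the test may still differ. The number of arrays limits the precision.

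The factors and all gene lists were chosen with earlier results of these data known. Named are KPNA4, the factors, the 4 largest called changes per list, the neighbors of SOX2 with SOX2-OT, and the 4 genes most like SOX2. Other names were chosen after their values were seen. Replicate numbers did not pair the samples. The alternatives were other scalings (quantile, median, none), normexp, other filters, the deposited table, the mean over a gene's probes, eBayes with trend and robust, the replicate block, a threshold of 0.01, flagged spots kept and each array left out. Normexp started from the median spot signal and the local background median, and was followed by quantile normalization. A planned comparison of protein sequences was not run, and some genes of the lists are not reported here.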

Additional observations from a re-analysis of the deposited data

How the results depend on the processing

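The 7 factors higher by at least 2-fold numbered 6 with normexp background correction, where PRDM1 was at 0.28, and 6 with the mean over probes, where GRHL1 was at 0.77, and 7 under the other alternatives. The difference of SOX2 was 6.97 with quantile normalization, 7.43 without scaling and 4.46 with normexp, and 6.89 to 6.97 with each array left out. TP63, KLF4 and SOX15 turned to 0.43, 0.40 and 0.27 without scaling, and TP63 to 0.05 without control 2. GRHL3 ranged from 1.09 to 2.10, KLF5 from 1.71 to 2.38, OVOL1 from 1.64 to 2.26 and ZNF750 from 1.33 to 1.98. With normexp the differences of HES5, GLI1 and TLE3 were 0.64, 0.59 and 0.32, those of KLF9, KLF2 and PRDM12 were 0.48, 0.19 and 0.27, and that of TP73 was -0.25.

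Without scaling, genes higher and lower were 11256 and 1047 over all genes tested, 24 and 3 for family relatives, 33 and 2 for other squamous transcription factors, 26 and 1 for p63 targets, 24 and 1 for epithelial state genes, 12 and 0 for stem cell genes and 32 and 0 for cofactors, and 3 differentiation targets were lower. The share of higher genes among those called was 40.8% with the 75th percentile, 91.5% without scaling, 47.1% with quantile normalization and 48.9% with normexp. At an adjusted p under 0.01 there were 2133 higher and 2341 lower genes, with 5 family relatives, 2 p63 targets, 3 differentiation targets, 1 stem cell gene and 0 cofactors lower, and 9 epithelial state genes and 5 cofactors higher. The p63 targets lower were 3 with quantile normalization and 3 without a filter. The cofactors lower were 1 with quantile normalization, 1 without a filter, 3 with normexp and 8 with limma's trend and robust options. With the replicate block 4 p63 targets and 2 cofactors were lower, and 3261 genes were higher and 4638 lower. The replicate numbers do not pair the samples, as the deviations of same-numbered arrays had a correlation of -0.03.

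With each array left out in turn, 2129 to 3602 genes were higher and 2516 to 4739 lower, the lowest counts without knockdown 2. Family relatives lower were then 5 to 10, p63 targets lower 1 to 4, differentiation targets lower 4 to 8, epithelial state genes higher 8 to 14, stem cell genes lower 1 to 3, and cofactors higher 5 to 12 and lower 0 to 3. Without a knockdown array the lone remaining one is assumed to vary like the controls. The cause of these shifts was not tested. Of 298 counts and main values under the alternatives, 241 kept their direction and stayed within 1.5 times the count, or within the replicate spread for SOX2. Of 140 differences of the other factors and KPNA4, 122 were counted as unchanged. For the factors this meant a shift within the replicate spread. For KPNA4 it meant only the same sign, and its difference was -1.32 without scaling. Signals near background limit SOX2 in the controls and PRDM1 on all arrays.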
